A study of Mus musculus with 36 samples.

Results

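Organoids of mouse pancreatic epithelial cells, labelled CIY_organoid, were compared to find genes whose response to TGFβ was seen only with doxycycline (dox) or only without it. Members were chosen among genes with a mean deposited value of at least 10 over the 4 organoid libraries. A gene responded when its log2 ratio of TGFβ over SB505124, on value + 1, was at least 1 in size, which is a 2-fold difference. It had no response when that ratio was under 0.5 in size. Members responded in 1 arm, had no response in the other, and had log2 ratios that differed by at least 1 between the arms. Of 13443 genes tested, 288 met these conditions. Another 45 genes responded in both arms in opposite directions and are given apart. The ratios chose the members, so these ratios describe the members and test nothing.

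The 4 conditions held 1 library each, in a series of 36 mouse samples. Organoids plated without dox, or with dox at 1 µg/mL, received SB505124 (2.5 µM, 6 h), which inhibits the TGFβ type I receptor, or TGFβ (100 pM, 1.5 h). Each ratio therefore carries the ligand and the treatment time together, and with 1 library per condition dox effects and library effects cannot be told apart. The sources used here do not state which gene dox switches on in these organoids, how many lines or cultures they came from, or their genotype at Rreb1. Rreb1 itself had 2078 and 2235 without dox and 1657 and 2297 with dox. The same treatments were given to 8 libraries of the KSIC_806 pancreatic ductal adenocarcinoma (PDA) line, labelled WT or KO for Rreb1 and marked S4, a mark the sources used here do not explain. Those libraries, with 2 per group, are used below as a replicated readout that played no part in choosing the members.

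TGFβ binds receptors whose type I kinase phosphorylates SMAD transcription factors, which then switch on feedback inhibitors, matrix genes and, in epithelial cells, genes of the epithelial-to-mesenchymal transition (EMT). Growth factor signals are known to shape which of these targets an epithelial cell induces. Interferons act through another route. Their receptors activate STAT proteins, which join IRF9 and bind an interferon-stimulated response element (ISRE) in front of antiviral genes.

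The organoid libraries held between 23.91 and 35.81 M recovered reads. All 10 ductal markers passed the filter, with a summed value from 155298 to 215725, while summed endocrine markers ran from 0 to 3.4 and summed fibroblast and stellate markers from 13.4 to 67.4. The leukocyte gene Ptprc was at 0 in 3 libraries and 0.744 in the other, although Cd14, which epithelium can also express, ran from 6582 to 15011. Other macrophage markers were present. Lyz2 had 662 and 121 without dox and 405 and 216 with dox, Csf1r ran from 77.4 to 203 and Cd68 from 107 to 239. The SB505124 library without dox stood apart. It held airway-type transcripts that were at or near 0 elsewhere, such as Scgb1a1, a club cell secretory protein gene, with 147 there against 0, 1.49 and 0, and the highest values of Col1a2 (12.1 against 0 to 1.05), Pecam1 (15.5 against 1.05 to 1.49) and Vwf (28.5 against 4.20 to 11.2). The fibroblast marker Col1a1, at 14.7 there, and the endothelial marker Kdr, at 6.05, were instead highest in the TGFβ library with dox, at 32.8 and 20.4. The part of all these transcripts in the results was not tested. Every ratio without dox uses this library as its denominator, and no second library can replace it.

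Across all tested genes 862 responded without dox and 908 with dox, 372 of them in both arms in the same direction. Without dox 3.56% of genes were higher by at least 2-fold and 2.85% lower; with dox 3.52% were higher and 3.24% lower. The difference of log2 ratios, with minus without dox, reached 1 in 2.74% of genes and −1 in 2.89%. The median log2 ratio was near 0 in both arms (−0.02 with dox). The members divided into 68 genes higher only with dox, 70 lower only with dox, 74 higher only without dox and 76 lower only without dox. The exact 95% interval of the difference, which covers counting error alone, left out 0 for 46, 40, 55 and 56 of them, and for 42 of the 45 genes with opposite responses. These intervals use the reads that chose the members and were not computed for all tested genes. Their counts therefore describe depth and do not support the choice of members.

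**Figure D1:**
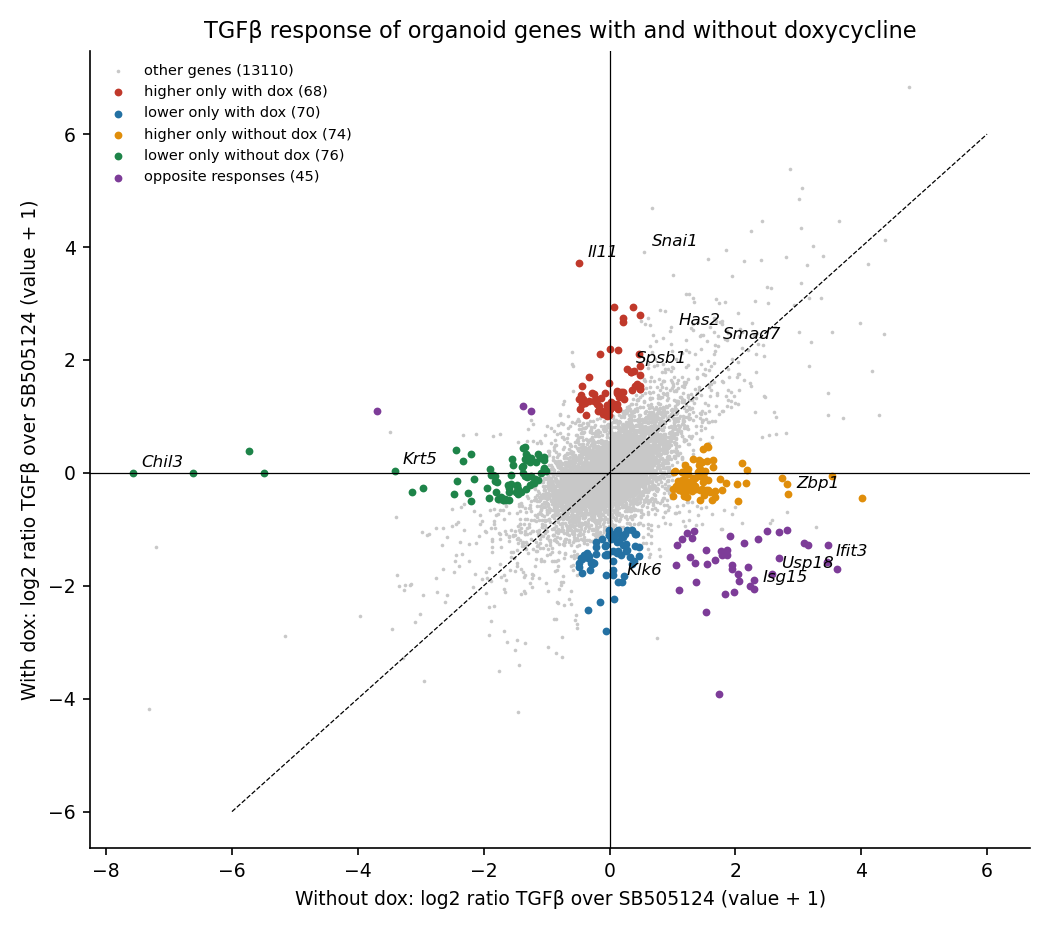
Log2 ratio of TGFβ over SB505124 without dox (horizontal) and with dox (vertical) for the 13443 tested genes, each from 1 library per condition and on value + 1. The 4 classes lie along the axes, the 45 genes with opposite responses lie mostly in the lower right, and the dashed line marks equal ratios.

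Interferon-stimulated genes were higher under TGFβ without dox and, for 17 of 18, lower under TGFβ with dox. All 18 genes of a list of interferon-stimulated genes had a difference of −1 or less, a size that 2.89% of all genes reached. Their median log2 ratio was 2.08 without dox and −1.13 with dox, against a median difference of 0.01 over all genes. Without dox 17 of the 18 were at least 2-fold higher under TGFβ, and with dox 10 were at least 2-fold lower. The summed value of the list was 12086 and 43943 under SB505124 and TGFβ without dox, and 14465 and 6739 with dox. The sums under SB505124 were closer to each other than to either TGFβ library, and the TGFβ libraries lay on either side of them. In bulk RNA, a change in the number of cells of a type and a change in RNA per cell cannot be told apart.

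Ifit3 (chromosome 19, 34583119 to 34588982), which encodes an antiviral tetratricopeptide protein, had values of 66.5 and 740 without dox and 87.0 and 28.3 with dox. Its log2 ratio was 3.46 without dox and −1.59 with dox, a difference of −5.04 (95% counting interval −5.86 to −4.36). Isg15 (chromosome 4, 156199424 to 156200818), a ubiquitin-like modifier gene, went from 687 to 3377 without dox and from 928 to 223 with dox (difference −4.35, interval −4.61 to −4.11). Both genes were highest in the TGFβ library without dox and lowest in the TGFβ library with dox. Usp18, whose product removes ISG15 from proteins and dampens interferon signalling, had 168 and 1018 without dox and 382 and 110 with dox (difference −4.38). Ifi44 had 1025 and 4820 without dox and 905 and 226 with dox (difference −4.23). The guanylate-binding protein gene Gbp10 had 14.7 and 51.5 without dox, and 14.1 and 0 with dox, where it was at least 4.16-fold lower at the limit of 3 reads per library.

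Other interferon genes fell in the class that was higher only without dox, because their values with dox stayed within the 0.5 limit. Zbp1, a sensor of viral nucleic acid, had 274 and 1958 without dox against 190 and 147 with dox (difference −3.20, interval −3.57 to −2.85). Parp14, an ADP-ribosyltransferase gene, had 2054 and 6599 against 1884 and 1393 (difference −2.12). Irf9, the DNA-binding partner of the STAT proteins and chosen after its values were seen, was just short of the 2-fold line in both arms, with 1418 and 2756 without dox and 1403 and 749 with dox. Cxcl10, a chemokine gene that interferon induces, had 114 and 320 without dox and 174 and 156 with dox (difference −1.64).

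Further members of this class were Tgtp1, an interferon-inducible GTPase gene (43.2 and 312 without dox, 37.9 and 32.8 with dox), Ifi47, of the same group of GTPases (44.1 and 202, then 49.8 and 44.1), and the DNA sensor family gene Ifi203 (82.9 and 562, then 106 and 99.6). Serpina3f, a serine protease inhibitor gene, went from 11.2 to 54.6 without dox and stood at 16.4 and 17.0 with dox. By name, all 7 immunity-related GTPases that passed the filter, 8 of 9 Gbp genes, 7 of 8 Oas genes and 3 of 3 Ifit genes had a difference of −1 or less, as did 4 of 5 Ifi20 genes, 4 of 5 genes named Parp9 to Parp14, 3 of 5 Slfn genes, 2 of 8 Irf genes, 2 of 14 MHC class I genes and 8 of 42 Trim genes. Over all genes the share was 2.89%. These name families were not among the planned gene lists and share genes with the classes, so their counts describe the members and test nothing. Members of the Gbp, Oas1, Tgtp, Ifi20 and Apol9 groups have near-identical copies that can share reads, so values of single copies are uncertain. Of the 45 genes with opposite responses, 42 were higher without dox and lower with dox. Their class medians were 118 and 565 without dox and 166 and 60.0 with dox, over all 45.

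The promoters of these genes are shown because the element that STAT proteins and IRF9 bind can be read in them. Each is the 250 bases before the start site from RefSeq on GRCm38.p6, printed 5′ to 3′ on the strand of the gene, and capitals mark the ISRE core, GAAA and again GAAA with any 2 bases between them, on either strand. Isg15 is at chr4:156200819-156201068 (minus strand), Ifit3 at chr19:34583279-34583528 (plus strand) and Cxcl10 at chr5:92348890-92349139 (minus strand).
Isg15: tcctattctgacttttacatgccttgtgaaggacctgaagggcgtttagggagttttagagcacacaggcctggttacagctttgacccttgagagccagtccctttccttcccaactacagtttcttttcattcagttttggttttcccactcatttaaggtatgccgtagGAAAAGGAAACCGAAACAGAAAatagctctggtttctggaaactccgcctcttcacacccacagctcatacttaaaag
Ifit3: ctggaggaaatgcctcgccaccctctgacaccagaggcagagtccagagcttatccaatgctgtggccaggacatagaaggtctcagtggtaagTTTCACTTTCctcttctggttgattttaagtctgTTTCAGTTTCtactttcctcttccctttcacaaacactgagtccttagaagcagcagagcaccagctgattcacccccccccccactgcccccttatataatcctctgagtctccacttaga
Cxcl10: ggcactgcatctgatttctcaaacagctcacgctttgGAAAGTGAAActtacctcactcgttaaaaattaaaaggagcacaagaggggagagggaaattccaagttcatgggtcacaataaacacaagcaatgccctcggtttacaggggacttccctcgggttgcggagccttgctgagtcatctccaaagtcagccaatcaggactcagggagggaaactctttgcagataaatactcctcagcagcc
Isg15 holds 3 overlapping matches in 1 run, Ifit3 holds 2 separate matches and Cxcl10 holds 1.

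A promoter was found for 34 of the 45 genes with opposite responses, and 20 of those held the core letters (58.8%). Among genes higher only without dox 10 of 47 did (21.3%), among genes higher only with dox 3 of 45 (6.67%), among genes lower only with dox 2 of 49 (4.08%), and among genes lower only without dox 0 of 62. Over all tested genes the share was 3.18%, and over all 32851 promoters listed by RefSeq it was 2.98%. Several matching promoters belong to neighbouring copies of 1 gene family, so they are not independent. The AP-1 letters TGANTCA, on either strand, were in 13 of 47 promoters of genes higher only without dox (27.7%), 17.6% of those of opposite responses, 12.9% of genes lower only without dox, 5 of 45 of genes higher only with dox (11.1%), 4.08% of genes lower only with dox, and 5.99% of all tested genes. The SMAD letters CAGAC, also on either strand, were in 41.9% to 55.1% of each class and 45.5% of all tested genes. A match describes the letters in this window and is not a measured binding site.

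**Figure D2:**
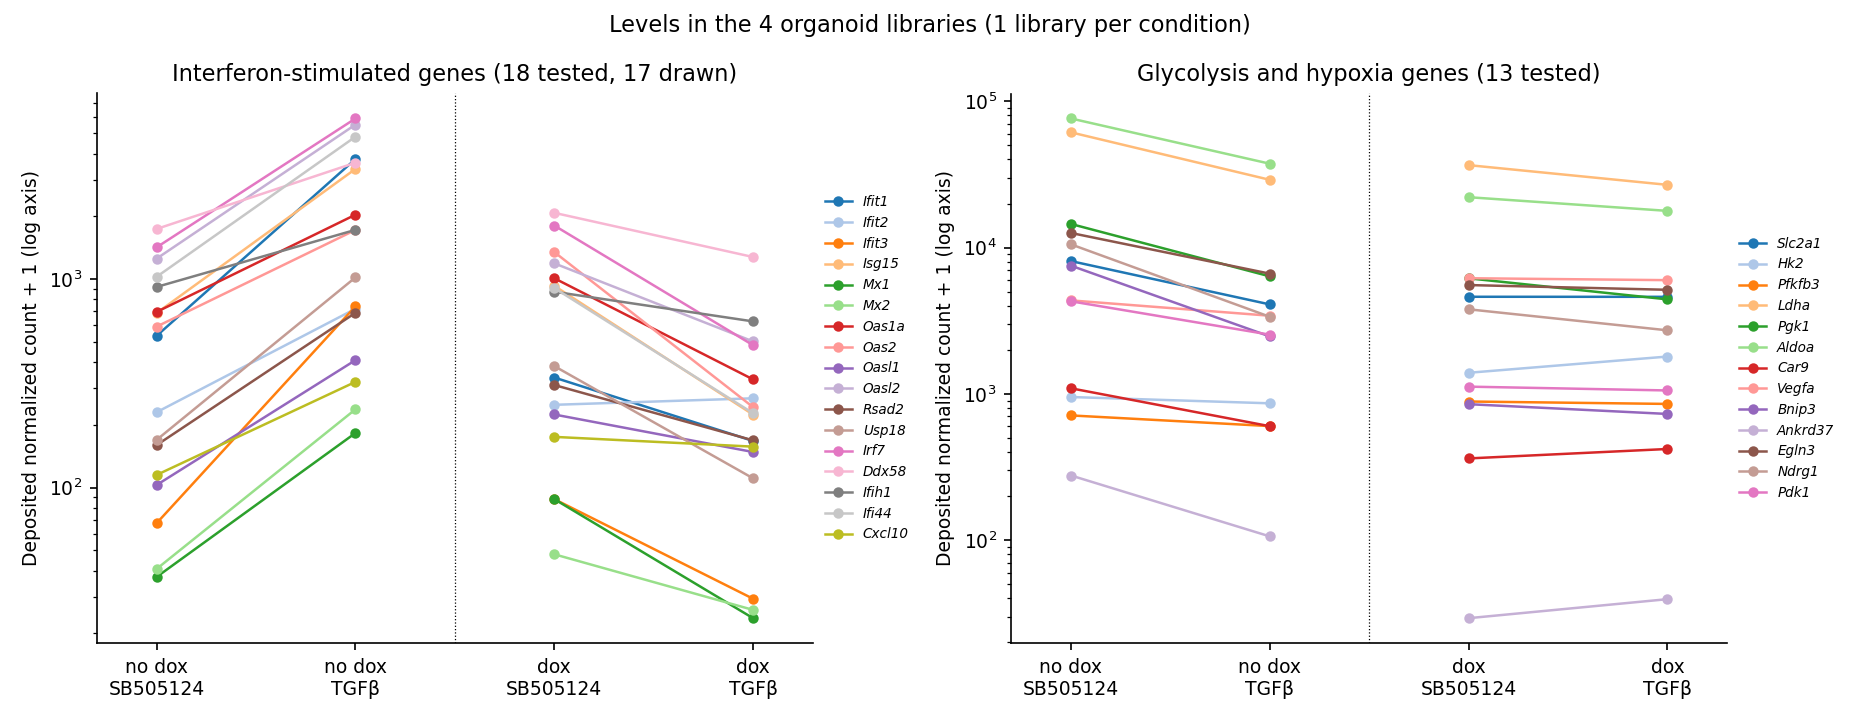
Deposited normalized count + 1, on a log axis, in the 4 organoid libraries for 17 of the 18 interferon-stimulated genes (left) and the 13 tested glycolysis and hypoxia genes (right), with lines joining SB505124 to TGFβ within each dox condition. Interferon-stimulated genes are higher under TGFβ without dox, where the sum of all 18 goes from 12086 to 43943, and most are lower with dox, while the sum of the hypoxia genes is highest, at 202393, in the SB505124 library without dox.

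Genes with a higher TGFβ ratio with dox included matrix, cytokine and EMT genes. Snai1 (chromosome 2, 167538195 to 167542814), which encodes a zinc finger repressor of epithelial genes, had 6.91 and 10.5 without dox and 3.72 and 70.2 with dox. It was 15.1-fold higher under TGFβ with dox on value + 1, and its log2 ratio of 0.54 without dox placed it just outside the class. Tspan18, with 0.48 without dox and 1.89 with dox, was just inside. Il11 (chromosome 7, 4772373 to 4782907), a profibrotic cytokine gene of the IL-6 family, had 7.77 and 5.25 without dox and 1.49 and 31.7 with dox (difference 4.20, interval 2.08 to 8.42). Only the TGFβ library with dox was high for either gene, and the other 3 held few reads.

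Has2, the hyaluronan synthase gene, had 8.64 and 17.9 without dox and 28.3 and 166 with dox (difference 1.55, interval 0.10 to 2.85). Pdgfb, a platelet-derived growth factor gene, had 656 and 1932 without dox and 345 and 4794 with dox (difference 2.23). Wisp1, a matricellular protein gene, had 58.7 and 262 without dox and 82.6 and 1119 with dox (difference 1.61), and Ctgf, of the same family, had 4072 and 9422 without dox and 2310 and 20680 with dox (difference 1.95). Pdgfb, Wisp1 and Ctgf were chosen after their values were seen, and all 3 responded in both arms, so none of them belongs to a class.

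Within the class higher only with dox, Spsb1, an E3 ligase adaptor gene that restrains TGFβ receptor signalling, had 287 and 349 without dox and 216 and 775 with dox (difference 1.56, interval 1.26 to 1.87). Fstl3, which encodes an extracellular binder of activins, had 49.2 and 65.1 without dox and 36.5 and 129 with dox (difference 1.40, interval 0.67 to 2.17). Both were chosen after their values were seen. The WNT ligand gene Wnt11 had 36.3 and 42.0 without dox and 5.21 and 38.5 with dox. Its TGFβ values were alike in both arms, and the SB505124 library with dox was the low one. The chemokine gene Ccl7 was the reverse case, with 87.2, 89.3 and 97.5 in 3 libraries and 223 under TGFβ with dox.

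Several members of this class had a higher ratio from a low SB505124 value with dox. Alox12, a lipoxygenase gene, had 139 and 117 without dox and 30.5 and 81.5 with dox. Wnk3, a kinase gene, had 56.1 and 41.0 without dox and 23.1 and 69.0 with dox, and Cacnb4, a calcium channel subunit gene, had 96.7 and 73.5, then 21.6 and 52.1. The tight junction gene Cldn18 had 58.7 and 48.3 without dox and 4.46 and 13.6 with dox, and the growth factor gene Clec11a had 50.1 and 39.9, then 14.9 and 37.3. All 5 were lower with dox than without under SB505124. Over the 68 genes the class medians were 29.4 and 29.9 without dox and 12.6 and 37.3 with dox. Gjb5, a gap junction gene, was instead higher throughout with dox (10.4 and 7.35, then 52.1 and 122). Cps1, a urea cycle enzyme gene, was at 0 in both libraries without dox, so it could show no response there, and had 14.1 and 67.9 with dox.

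Counted over all genes, 135 were at least 2-fold higher with dox and had a difference of at least 1. Of these, 68 had no response without dox, 28 lay between the limits, 27 were also at least 2-fold higher without dox and 12 were lower without dox by 0.5 or more. Among 18 fibrogenic factors and matrix genes 7 had a difference of at least 1, a size 2.74% of all genes reached, and 16 had a positive one. The list median was 0.33 without dox and 0.80 with dox. Over all genes 50.9% had a positive difference, and lists of other functions were also one-sided, as given below for ribosomal proteins and cholesterol synthesis genes. Among 22 TGFβ/SMAD targets and feedback genes 5 reached 1 and 20 were positive, with medians of 0.52 and 0.85. Smad7, the inhibitory SMAD gene, had 320 and 1022 without dox and 355 and 1710 with dox (difference 0.60, interval 0.36 to 0.83), and Skil, a SMAD corepressor gene chosen after its values were seen, had 1414 and 3863, then 1147 and 5262. Both feedback genes responded in both arms. Of the 7 tested EMT transcription factors, Snai1 and Snai2 had a difference of at least 1, and none of 21 ERK pathway output and feedback genes reached 1 in either direction.

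**Figure D3:**
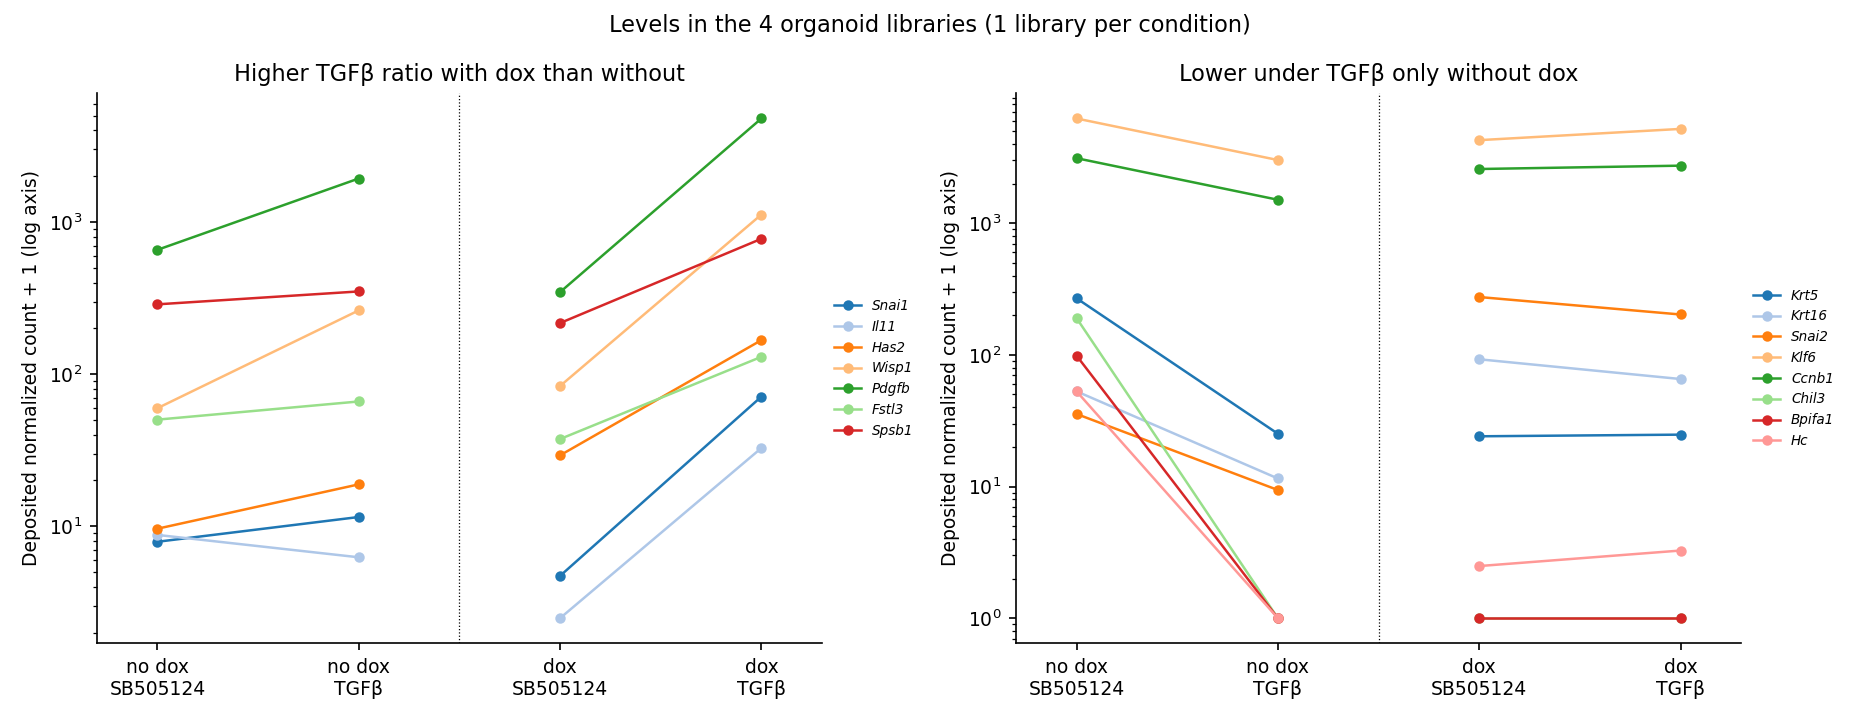
Deposited normalized count + 1, on a log axis, in the 4 organoid libraries for 7 genes with a higher TGFβ ratio with dox (left) and 8 genes lower under TGFβ only without dox (right). Snai1 reaches 70.2 in the TGFβ library with dox against 3.72 to 10.5 in the other 3, and Chil3 is at 189 in the SB505124 library without dox and at 0 in the rest.

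The Il11 promoter is shown as an example of a member with both SMAD and AP-1 letters near its start. It is the more downstream one of 2 RefSeq promoters of this gene, at chr7:4778142-4778391 on GRCm38.p6 (minus strand), printed 5′ to 3′ with capitals for CAGAC or its reverse complement, 2 matches, and for TGANTCA, 1 match.
Il11: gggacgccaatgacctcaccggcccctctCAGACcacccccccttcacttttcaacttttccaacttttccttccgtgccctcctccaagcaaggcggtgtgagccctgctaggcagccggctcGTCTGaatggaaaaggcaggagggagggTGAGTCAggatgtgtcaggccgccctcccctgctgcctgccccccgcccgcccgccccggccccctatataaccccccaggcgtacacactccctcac
These are letter matches only, and the SMAD letters are common in all promoters.

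The class lower only without dox held 76 of all 13443 tested genes. It held 3 of the 13 tested glycolysis and hypoxia genes, 3 of 17 tested keratins by name and 1 of 23 cell cycle genes. A further 2 keratins were higher only with dox, and 15 of the 17 had a positive difference, where 50.9% of all genes had one. Krt5 (chromosome 15, 101707069 to 101712905), a basal keratin gene, had 268 and 24.2 without dox and 23.1 and 23.8 with dox (difference 3.46, interval 2.41 to 4.60). Krt16, a stress keratin gene chosen after its values were seen, had 51.8 and 10.5 without dox and 91.5 and 64.5 with dox. Krt16, at −0.50 after rounding with dox, was just inside the limit, and Adtrp, at −0.51, was just outside. The EMT transcription factor gene Snai2 had 34.6 and 8.40 without dox and 274 and 201 with dox (difference 1.48, interval 0.44 to 2.93). For Krt5 the SB505124 library without dox was the high one of 4, whereas Krt16 and Snai2 were higher in both libraries with dox.

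Glycolysis and hypoxia genes had a positive difference in 13 of 13 cases, where 50.9% of all genes had one, and 4 reached 1, a size that 2.74% of all genes had. Other lists were nearly as one-sided with smaller differences. Ribosomal proteins had 15 of 16 positive with a median difference of 0.22, and cholesterol synthesis genes 17 of 21 with 0.13. The hypoxia list had a median log2 ratio of −0.98 without dox and −0.09 with dox. Their summed value was 202393 and 97473 without dox and 89570 and 72401 with dox, so the SB505124 library without dox was the high one. Bnip3, a mitophagy gene that low oxygen induces, had 7515 and 2467 without dox and 849 and 728 with dox (difference 1.38, interval 1.23 to 1.54). Ankrd37, another hypoxia target, had 276 and 105, then 28.3 and 38.5 (difference 1.81, interval 1.04 to 2.62). Ndrg1, a stress gene induced by hypoxia, had 10513 and 3362, then 3782 and 2717 (difference 1.17, interval 1.08 to 1.26). Bnip3 and Ankrd37 stayed well above their dox values in both libraries without dox.

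Among the remaining named genes of this class, the growth-regulating zinc finger gene Klf6 had 6235 and 3014 without dox and 4268 and 5196 with dox (difference 1.33). The mitotic cyclin gene Ccnb1 had 3113 and 1504, then 2576 and 2732 (difference 1.13, interval 1.02 to 1.25). Chrdl2, a BMP antagonist gene, had 226 and 59.9, then 11.9 and 12.4, and Bcl2l15, an apoptosis-related gene, had 41.5 and 10.5, then 121 and 118. Acta1, the skeletal muscle actin gene, had 46.6 and 17.9, then 26.0 and 36.2. Klf6 and Ccnb1 showed their lowest value in the TGFβ library without dox.

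The members with the largest ratios in this class rested on the SB505124 library without dox alone. Chil3, a chitinase-like gene of macrophages and lung, had 189 there and 0 in the other 3 libraries, at least 60.0-fold lower under TGFβ without dox. Bpifa1, a secreted airway defence gene, had 97.6 there and 0 elsewhere (at least 31.0-fold), and Hc, the complement C5 gene, had 51.8, 0, 1.49 and 2.26 (at least 16.4-fold). Chia1, an acidic chitinase gene, had 44.1 there and 0 elsewhere and was chosen after its values were seen. With 0 in both dox libraries, Chil3, Bpifa1 and Chia1 could show no response there. The MHC class II gene H2-Aa, counted among the opposite responses, had 52.7 and 3.15 without dox and 0 and 1.13 with dox, and its counting interval with dox minus without reached down to −1.03. Among the 76 genes 7 had a library at 0.

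The 70 genes lower only with dox had class medians of 21.6 and 23.6 without dox and 32.7 and 11.3 with dox. Igf2bp1, an mRNA-binding protein gene, had 10.4 and 14.7 without dox and 121 and 43.0 with dox (difference −1.93, interval −3.35 to −0.64). Reg3g, an antibacterial lectin gene, had 95 and 98.8 without dox and 42.4 and 11.3 with dox (difference −1.87, interval −3.17 to −0.87). Lrrc24, a leucine-rich repeat gene, had 48.4 and 56.7, then 67.0 and 18.1 (difference −2.06, interval −3.15 to −1.12), and Fcamr, an immunoglobulin receptor gene, had 36.3 and 34.7, then 66.2 and 18.1. In each of these 4 genes the TGFβ library with dox was lower than the SB505124 library with dox, and the libraries without dox were close to each other.

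Fn3k, which encodes a kinase that repairs glycated proteins, had 65.6 and 51.5 without dox and 10.4 and 1.13 with dox, the last a single read. Krtap1-5, a hair keratin-associated protein gene, had 53.6 and 55.7, then 20.8 and 5.66. Klk6, a secreted protease gene, had 1 read in each library without dox and values of 235 and 61.1 with dox, so no response without dox could be measured (counting interval of the difference −8.52 to 4.09). Onecut1, a ductal transcription factor gene, had 41.5 and 35.7, then 29.8 and 11.3 (difference −1.11, interval −2.53 to 0.09). For Klk6 and Onecut1 the counting interval held 0, as it did for 30 of the 70 genes.

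**Figure D4:**
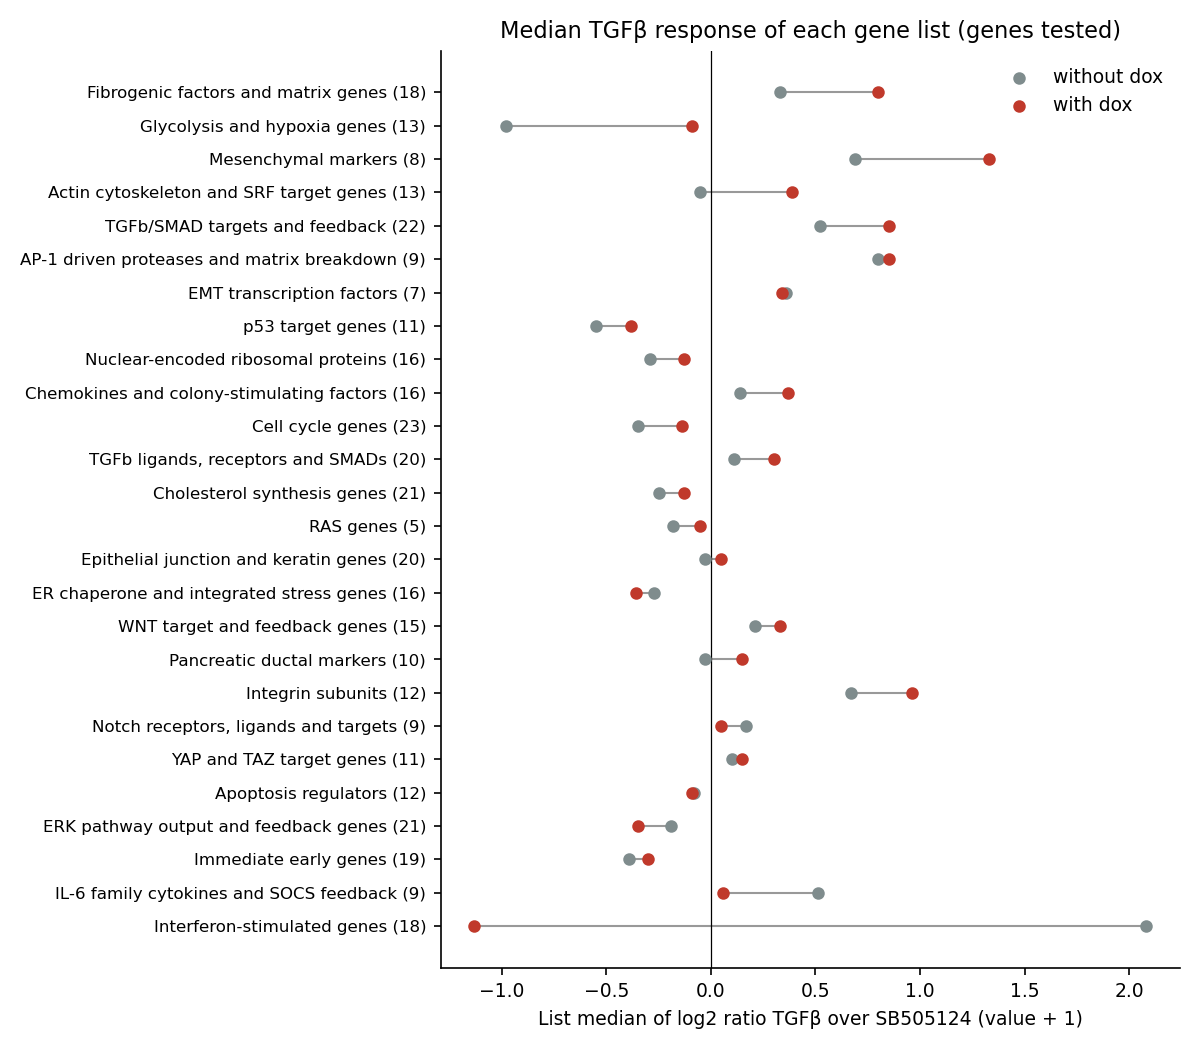
Median log2 ratio of TGFβ over SB505124 without dox (grey) and with dox (red) for each gene list with at least 5 tested genes, the number tested in brackets. Interferon-stimulated genes, at 2.08 and −1.13, are set farthest apart, followed in the other direction by glycolysis and hypoxia genes, at −0.98 and −0.09.

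The replicated PDA libraries tested the same members in other cells. Of the 288 genes 177 passed the PDA filter (10 or more in 2 or more of the 8 libraries), and the rest were not tested there. In the fit with limma over 13226 genes, with Benjamini-Hochberg adjustment and n = 2 per group, TGFβ changed 70 of them in WT cells, 44 higher and 26 lower, where 19.4% of all genes were higher and 17.6% lower. Fewer members were called when either WT TGFβ library was left out, a setting for which the share of all genes is not given. The labels do not say that replicates were separate cultures, so these p-values measure only the spread between the libraries.

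Genes higher only with dox were those most often higher in WT PDA cells. Of the 46 tested 19 rose and 5 fell, and the rises were 41.3% against 19.4% of all genes. The difference between these shares was not tested. Leaving out single libraries gave as many rises and falls or fewer. Of genes higher only without dox 12 of 45 rose and 6 fell, and fewer did when either WT TGFβ library was left out. Of genes lower only without dox 11 of 52 rose and 9 fell. Of genes lower only with dox 2 of 34 rose and 6 fell, and of those with opposite responses 8 of 22 rose and 3 fell. Rises were also fewer in these classes when WT TGFβ replicate 1 or replicate 2 was left out. The share of all genes called with a library left out is not given, so these losses cannot be read as a trait of the members. As shares of the genes tested, the rises came to 41.3% for genes higher only with dox, 36.4% for opposite responses, 26.7% for genes higher only without dox, 21.2% for genes lower only without dox and 5.88% for genes lower only with dox.

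Il11 rose in WT PDA cells from 103 ± 4.98 (SD, n = 2) to 1899 ± 57.6, a log2 fold change of 4.19 ± 0.19 SE in limma (adjusted p = 7.30e-06). Its single values were 106 and 99.4, then 1940 and 1859, so the groups did not overlap. Spsb1 rose from 656 ± 137 to 2830 ± 39.7 (2.12 ± 0.15, limma adjusted p = 4.88e-05), and Fstl3 from 30.2 ± 14.1 to 236 ± 30.1 (3.00 ± 0.44, limma adjusted p = 0.0017). Spsb1 and Fstl3 were chosen after their values were seen. Gjb5 rose from 80.5 ± 12.6 to 136 ± 3.04 (0.76 ± 0.21, limma adjusted p = 0.0250), a call that ended without WT SB replicate 1 (0.100), WT TGFβ replicate 1 (0.129) or WT TGFβ replicate 2 (0.11). Other members of the class fell or were not called there, and Cps1 and Alox12 did not pass the PDA filter. Cldn18 fell from 23423 ± 1826 to 18700 ± 489 (−0.32 ± 0.08, limma adjusted p = 0.0135; 0.107 and 0.0697 without WT TGFβ replicate 1 and 2). Wnk3 and Clec11a were not called (limma adjusted p = 0.601 and 0.722), nor was Ccl7 (0.0800; 0.00457 without WT SB replicate 1). Cacnb4, with 5.04 ± 1.96 and 14.1 ± 5.55, was called (1.31 ± 0.41, limma adjusted p = 0.0407), a call that ended when any library except WT SB replicate 1 was left out (adjusted p from 0.0548 to 0.239).

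Interferon genes went either way in WT PDA cells, most of them at low values. Ifit3 fell from 16.9 ± 2.02 to 4.26 ± 2.09 (−1.82 ± 0.45, limma adjusted p = 0.0161; 0.0656 without WT SB replicate 1 and 0.105 without WT TGFβ replicate 2). Ifi203 fell from 524 ± 75.4 to 307 ± 1.93 (−0.76 ± 0.13, limma adjusted p = 0.00328). Apol9a, an apolipoprotein L gene, rose from 5.95 ± 0.621 to 54.6 ± 6.54 (3.00 ± 0.27, limma adjusted p = 0.000175), and Oas3, an antiviral oligoadenylate synthetase gene, from 8.69 ± 1.90 to 25.1 ± 2.76 (1.44 ± 0.22, limma adjusted p = 0.00235). Irf7, an interferon regulatory factor gene, rose from 20.6 ± 0.556 to 37.2 ± 5.42 (0.81 ± 0.18, limma adjusted p = 0.0110; 0.0928 without WT TGFβ replicate 1). Apol9a, Oas3 and Irf7 were chosen after their values were seen. Ifi47, Parp14, Cxcl10 and Usp18 were not called (limma adjusted p = 0.462, 0.116, 0.712 and 0.770), although Parp14 was without WT SB replicate 1 (0.0428).

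Hypoxia genes that were lower under TGFβ in the organoids without dox went either way in WT PDA cells. Bnip3 rose from 214 ± 20.4 to 572 ± 20.2 (1.42 ± 0.11, limma adjusted p = 7.33e-05), and Ankrd37 from 23.3 ± 0.75 to 172 ± 9.25 (2.83 ± 0.57, limma adjusted p = 0.00714; 0.0535 without WT TGFβ replicate 2). Ndrg1 fell from 15160 ± 296 to 8148 ± 151 (−0.90 ± 0.06, limma adjusted p = 2.91e-05). Snai2, which was also lower under TGFβ in the organoids without dox, fell from 367 ± 61.1 to 79.2 ± 7.33 (−2.19 ± 0.18, limma adjusted p = 0.000111).

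**Figure D5:**
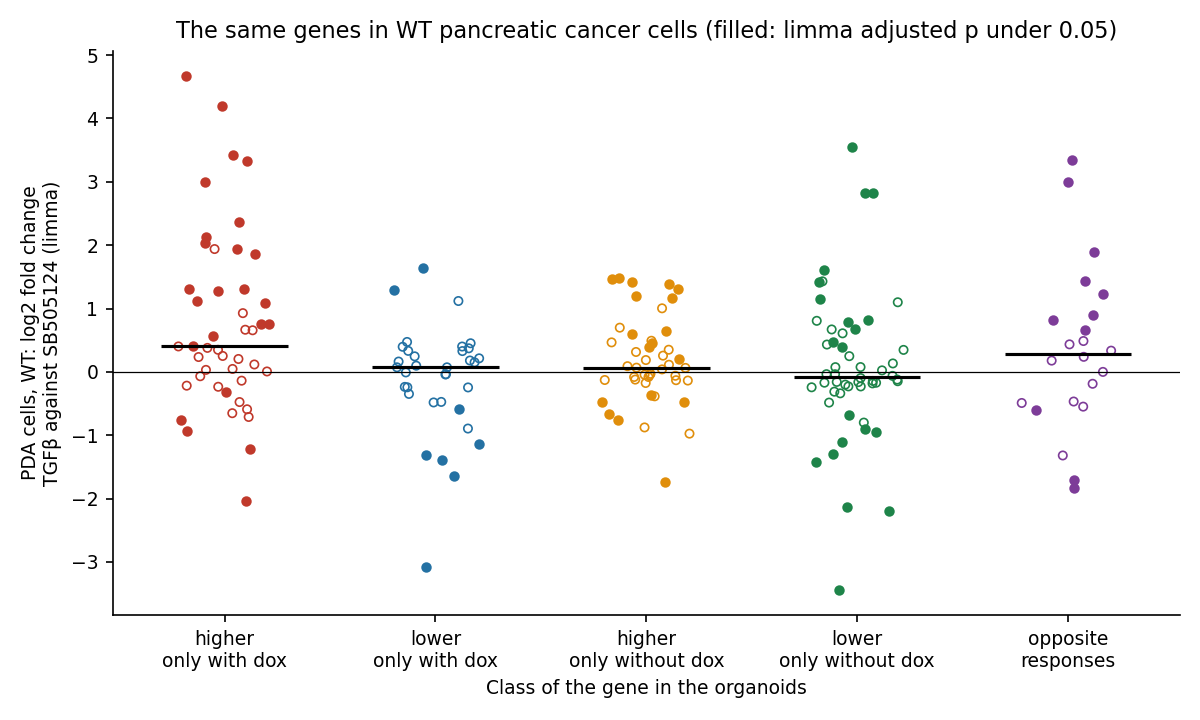
Log2 fold change of TGFβ against SB505124 in WT PDA cells (limma, 2 libraries per group) for each organoid class, 1 point per gene with filled points past an adjusted p of 0.05 and bars for class medians. Genes higher only with dox have a median of 0.40 and 19 of 46 rose, and the other classes lie closer to 0.

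In the PDA cells labelled KO for Rreb1, 92 of the 177 genes were called, 53 higher and 39 lower, where 20.6% of all genes were higher and 18.0% lower. The transcript of Rreb1 itself did not vanish there, with 2164 and 2195 under SB505124 and 2886 and 2560 under TGFβ, so the groups are named by their label. The interaction, which tests whether the TGFβ response differs between the labels, was called for 44 members, 11 with a higher response in KO and 33 with a lower one, against 9.71% and 12.1% of all genes. It was called for fewer members when a WT TGFβ or KO SB library was left out, settings for which the share of all genes is not given. By class, a lower response in KO was called for 7 of 46 genes higher only with dox (15.2%) and 4 of 34 lower only with dox (11.8%). It was called for 12 of 45 genes higher only without dox (26.7%) and 10 of 52 lower only without dox (19.2%). A higher response in KO was called for 3, 2, 3 and 3 genes of these classes, in the same order. Differences between these shares were not tested. KO libraries may be 1 line or clone, since the labels name none, so the label and any further difference of that line cannot be told apart.

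Il11 responded less in the cells labelled KO, where it went from 21.8 ± 6.16 to 70.8 ± 2.73 (interaction −2.51 ± 0.26 SE on the log2 scale, limma adjusted p = 0.00156). For Wisp1, with 88.3 ± 17.9 and 428 ± 26.4 in WT and 115 ± 33.2 and 148 ± 17.0 in KO, the interaction was −1.90 ± 0.32 (limma adjusted p = 0.00755). Snai1, Has2, Spsb1 and Fstl3 had interactions of −2.28, −1.59, −0.56 and −2.03 that missed the threshold (limma adjusted p = 0.0805, 0.0537, 0.0930 and 0.0525). Each of those 4 passed it under at least 1 alternative, with adjusted p from 0.0108 to 0.0317. Gjb5, Ctgf and Cyr61 were the opposite case, with a higher response in KO. Each had a lower mean under SB505124 in KO than in WT. For Gjb5 these means were 24.7 and 80.5, for Ctgf 3720 and 5788, and for Cyr61 1323 and 2665. Under TGFβ the KO and WT means were 132 and 136 for Gjb5, 11595 and 9120 for Ctgf, and 3045 and 2162 for Cyr61. The interaction of Gjb5 was 1.63 ± 0.30 (limma adjusted p = 0.00972), a call that ended without WT TGFβ replicate 1 or 2. Interactions were 0.98 ± 0.09 for Ctgf and 1.50 ± 0.09 for Cyr61 (limma adjusted p = 0.000928 and 0.000362). Cyr61, of the fibrogenic list, had an organoid difference of 1.46 and was chosen after its values were seen.

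Among members lower only without dox, Ndrg1 and Snai2 had a larger log2 fall in the cells labelled KO. In WT, Ndrg1 had 15160 ± 296 and 8148 ± 151, lower than in KO under both treatments. In KO, Ndrg1 went from 35371 ± 61.1 to 10312 ± 6.07 (interaction −0.88 ± 0.08, limma adjusted p = 0.000928). Snai2 went from 400 ± 56.9 to 37.2 ± 5.05 (−1.20 ± 0.26, limma adjusted p = 0.0169), a call that ended without WT TGFβ replicate 1 (0.0841), WT TGFβ replicate 2 (0.0600) or KO SB replicate 2 (0.0718). Bnip3 and Ankrd37 had interactions of −0.14 ± 0.15 and 0.46 ± 0.80 (limma adjusted p = 0.553 and 0.716). The KO values of Ankrd37 under SB505124 lay apart, at 6.03 and 29.4, and its interaction was 1.52 without KO SB replicate 2.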

How the data were processed

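RNA-seq libraries were analysed from the 4 organoid conditions and the 8 PDA libraries; other samples of the series are not used here. The authors deposited a signal for each gene and library, a read count divided by 1 factor per library. Tools listed in the submitters' processing notes, without role or order, are HTSeq 0.6.1p1, DESeq2 3.4, Bowtie2, FastQC 0.11.5 and HOMER, with the mm10 build. Per the labels' protocols, RNA with an integrity number above 9.5 went into the TruSeq v2 kit, which does not mark strand, so overlapping antisense genes cannot be told apart. In each library 100% of values were whole multiples (tolerance 0.001) of 1 step, and these recovered reads gave depth and exact 95% intervals, which cover counting error only.

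Organoid log2 ratios used value + 1 and genes with a mean of at least 10 of 18758 listed; 25 names turned into dates by a spreadsheet were kept and not named. With 1 library per condition no p-value was computed. Intervals of a difference came from the conditional odds ratio of the 4 read counts, scaled by the value of 1 read in each library. A value at 0 gives a fold bound at 3 reads per library. PDA values of at least 10 in at least 2 of 8 libraries were fitted as log2(value + 1) with limma 3.58.1 (R 4.3.3, trend, two-sided, 4 groups of 2), with calls at an adjusted p under 0.05. PDA depth was 20.41 to 44.50 M reads. edgeR 4.0.16 on recovered reads was an alternative. The pipeline was tested on simulated data.

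The members and the 32 gene lists were chosen with earlier results of these data known. Families taken by name, such as Gbp genes and keratins, were outside those lists and may have been chosen with these values known. Named genes were Rreb1, Snai1, Has2 and Smad7, the 7 largest differences per class and 6 opposite responses among genes reaching 50 in a library, and up to 3 members per list; others are marked as chosen after their values were seen. Some genes that this rule took are not reported here. Promoters and positions came from RefSeq on GRCm38.p6. Replicate numbers of the PDA groups share only a number.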

Additional observations from a re-analysis of the deposited data

Results flagged for a closer look

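In the organoids, the single libraries of 45 genes moved in opposite directions with and without dox, a difference that was not tested with 1 library per condition. The 6 listed here are those that the naming rule took among genes reaching 50 in a library. Tgtp2 and H2-T24, with differences of −5.33 and −4.75, stayed below 50 in every library. The difference of log2 ratios, with minus without dox, was −5.66 for Gbp10, −5.04 for Ifit3, −4.38 for Usp18, −4.35 for Isg15 and −4.23 for Ifi44, all higher under TGFβ without dox and lower with dox. It was 4.78 for H2-Aa, which rests on the SB505124 library without dox and on 0 and 1 read with dox.

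In the PDA cells, 8 of the named genes whose response limma called different between the labels are listed here. They are not the only ones. The call was made for 44 members, and also for Cyr61 (1.50, limma adjusted p = 0.000362), Ctgf (0.98, 0.000928) and Skil (−0.71, 0.00834). The KO response minus the WT response (log2) was −2.51 for Il11, −1.90 for Wisp1, −1.20 for Rreb1, −1.20 for Snai2, −0.88 for Ndrg1 and −0.69 for Ifi203, and it was 1.63 for Gjb5 and 2.15 for Ifit3. The calls of Snai2, Gjb5, Ifi203 and Ifit3 ended when single libraries were left out, and those of Ifi203 (adjusted p = 0.0328) and Ifit3 (0.0478) also with the replicate number as a block (0.0727 and 0.0563).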

How the results depend on the processing

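No value of a named gene changed direction under the alternatives run. The class counts moved with the limits chosen. A pseudocount of 5 gave 45 genes higher only with dox and 44 lower only with dox. Without a filter on the mean the counts were 449, 341, 477 and 373 (higher and lower only with dox, then higher and lower only without dox) and 259 opposite responses, and with a mean of at least 50 they were 20, 19, 33 and 38. A response limit of 1.5 gave 22, 24, 28 and 38, with 18 opposite responses, and a no-response limit of 0.25 gave 40, 43, 46 and 42. Keeping only intervals that left out 0 gave 40 genes lower only with dox. A no-response limit of 1, chosen after the data were seen, gave 105 genes higher and 109 lower only with dox and 115 lower only without dox. Rescaling to the same total or by TMM factors shifted the median difference by −0.03 and 0.04. In PDA cells, leaving out single libraries gave 43 to 72 members called in WT, 62 to 97 in KO and 13 to 57 in the interaction. With the replicate number as a replicate block, 62, 86 and 30 members were called, against 70, 92 and 44; deviations of same-numbered libraries correlated from −0.506 to 0.144, so the numbers do not pair the libraries. Depth limits the low members: 22 and 30 of the genes higher and lower only with dox had counting intervals that held 0.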
